A study of Mus musculus with 8 samples.

Results

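The 10 genes described here are the pair of mouse genes that encode the histone variant H3.3, H3f3a and H3f3b, and 8 genes for chaperones that carry histone H3 and help place it on DNA: Hira, Ubn1, Cabin1, Asf1a, Asf1b, Daxx, Atrx and Chaf1a. They were chosen by name, through the symbol of each Ensembl identifier, and all 10 were found among the 19058 genes of the deposited table. The choice was made with earlier results of these data known. The study sequenced polyadenylated RNA of whole mouse late morulae collected 78 h after fertilization. Its title names the histone-binding proteins RBBP4 and RBBP7, cell proliferation and the deposition of H3.3. All embryos had been injected as zygotes with small interfering RNA (siRNA). The control group received a non-specific siRNA, the Rbbp4 knockdown group siRNA against Rbbp4, the Rbbp7 knockdown group siRNA against Rbbp7, and the double knockdown group siRNA against both. There were 2 libraries in each group and 8 in all. A knockdown lowers a messenger RNA without altering the gene. The sources used here give neither the strain nor the number of embryos per library. They also do not say whether the 2 libraries of a group are separate pools of embryos, so every p-value reflects only the spread between these libraries, which may be technical.

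Most histone H3 is made in S phase and put on new DNA behind the replication fork by the CAF-1 complex, whose large subunit is encoded by Chaf1a and whose small subunit is RBBP4. H3.3 is made throughout the cell cycle and is placed independently of replication by 2 routes. The HIRA complex, built from HIRA, UBN1 and CABIN1, serves transcribed genes and regulatory elements. DAXX with the remodeller ATRX serves telomeres, pericentromeric repeats and retroelements. ASF1A and ASF1B hold H3 paired with H4 and hand it to these depositing complexes. In the early mouse embryo, H3.3 supplied by the egg is incorporated into the sperm-derived chromatin soon after fertilization, a step that needs HIRA.

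H3f3a and H3f3b encode the same protein from different nucleotide sequences, which is what allows reads from them to be told apart. In the GENCODE M21 annotation of build GRCm38, H3f3a (ENSMUSG00000060743) lies on the minus strand at chr1:180800832-180813943 and H3f3b (ENSMUSG00000016559) on the minus strand at chr11:116021912-116027962. The coding sequences of transcripts H3f3a-205 and H3f3b-201 are both 411 bases long, stop codon included, and translate identically. They differ at 95 bases, 81 of them at the third position of a codon, so that 76.9% of bases are identical and the longest identical run is 23 bases. The first 150 bases of each, 5′ to 3′ from the start codon, are shown with the 32 bases that differ in capitals, to show how densely the differences fall.
H3f3a: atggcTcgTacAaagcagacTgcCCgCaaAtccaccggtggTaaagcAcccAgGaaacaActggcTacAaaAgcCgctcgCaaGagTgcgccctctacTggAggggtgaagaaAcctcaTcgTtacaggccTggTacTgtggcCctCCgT
H3f3b: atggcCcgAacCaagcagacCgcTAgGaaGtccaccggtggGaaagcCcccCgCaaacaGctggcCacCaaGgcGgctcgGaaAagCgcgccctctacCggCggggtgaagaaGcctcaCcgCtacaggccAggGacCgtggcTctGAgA

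H3f3a and H3f3b share fewer than 1% of their 50-base stretches with each other, but both share some with other annotated genes. Of the 50-base stretches of H3f3a transcripts, 19.4% also occur in Gm17275 or H3f3aos, whose exons overlap those of H3f3a on the opposite strand and which were not analysed here. Another set of 25 genes elsewhere, 5 of them in the table, holds 12.0% of the stretches. For H3f3b the share is 6.86%, with 3 genes elsewhere, 1 of them in the table. H3f3a values are therefore the less certain of the pair.

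The 250 bases before the RefSeq start of each gene (build GRCm38.p6) differ in the letters of common promoter motifs. Both windows lie inside the gene spans that GENCODE gives, and 214 bases of the H3f3b window and 99 of the H3f3a window fall in exons of other transcripts of the same gene. Searched on both strands, H3f3b holds CCAAT 4 times and TATAAA 1 time, whereas H3f3a holds CCAAT 1 time and TATAAA 0 times. Across 32851 RefSeq promoters of that length (a gene can have several), 33.8% hold CCAAT at least 1 time, 0.84% at least 4 times, and 12.4% hold TATAAA. Both features at the H3f3b level occur in 0.07%. The limit of 4 and the pairing of motifs were read from H3f3b itself, so these low shares are a description only. The motif letters do not overlap one another. The matches are shown with 7 bases on either side, 5′ to 3′ on the gene's strand, with the motif (or its reverse complement ATTGG) in capitals.
H3f3b at chr11:116024707-116024725: catccagCCAATcctgaag
H3f3b at chr11:116024683-116024701: gtaacagCCAATcagtggc
H3f3b at chr11:116024660-116024678: acaccggCCAATcaggaaa
H3f3b at chr11:116024590-116024608: gctcccgCCAATcgaaaaa
H3f3b at chr11:116024519-116024538: gcgtctcTATAAAtatggag
H3f3a at chr1:180813618-180813636: gtgtgtgATTGGctggagc
The TATAAA of H3f3b starts 27 bases before the RefSeq start. Among the chaperones, Asf1b also holds CCAAT 4 times and Atrx 3 times, and TATAAA was found in front of none of the 8. A match of letters is a description, not a measured binding site.

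Values are abundances per gene that the authors normalized between libraries, and their totals ranged from 11334107 to 12011829 per library. The siRNA targets followed their labels. Rbbp4 was at 5300 and 4710 in the control and between 342.6 and 433.2 in the 4 libraries injected against it, and Rbbp7 was at 8399 and 7205 in the control and between 265.7 and 327.3 in its 4. Control replicate 1 stood apart, with 3937 genes at 0 (2644 to 3237 elsewhere) and a mitochondrial share of 6.21% (4.26% to 5.53% elsewhere). All 14 markers of the embryo's own cells were detected, summing to 50950 and 49451 in the double knockdown and to between 53776 and 64603 in the other 6 libraries. Marker sums were 98.2 to 189.6 for oocytes (10 of 11 listed genes in the table), 78.9 to 251.3 for cumulus and granulosa cells (5 of 10), at most 4.9 for sperm (4 of 7) and at most 24.4 for blood (4 of 8).

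Per kilobase of exon (the union of all annotated exons of a gene), the H3.3 genes stood far above their chaperones in control morulae. H3f3b was at 2260 ± 75.3 (SD, n = 2 here and for every group mean) and H3f3a at 1900 ± 331 normalized abundance per kilobase, in the 97.9th and 97.5th percentile of 12532 genes. With the length of 1 annotated transcript each (888 bases for H3f3a and 1993 for H3f3b) in place of the exon unions, an alternative chosen after seeing the data, the order of these 2 genes reversed. The chaperones spanned the 48.0th to the 76.7th percentile. Asf1b came first at 215 ± 74.3 and overlapped with Hira at 171 ± 26.1. Next came Daxx at 125 ± 6.06 and Atrx at 125 ± 14.7, which overlapped. Chaf1a (108 ± 6.9) and Asf1a (101 ± 7.15) also overlapped, and below them Ubn1 (86.5 ± 3.71) and Cabin1 (56.5 ± 5.18) were each separate from their neighbours. The 3 subunits of the HIRA complex thus differed in level, with Hira highest and Cabin1 lowest in both control libraries. Large parts of the exons of Hira, Asf1a and Chaf1a overlap other genes, as given below, so their places in this order are less certain. Another length was tried only for H3f3a and H3f3b, so the levels, percentiles and order of all the chaperones hold for exon unions only. These unions reach 21757 bases for Atrx and 12151 for Cabin1.

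**Figure D1:**
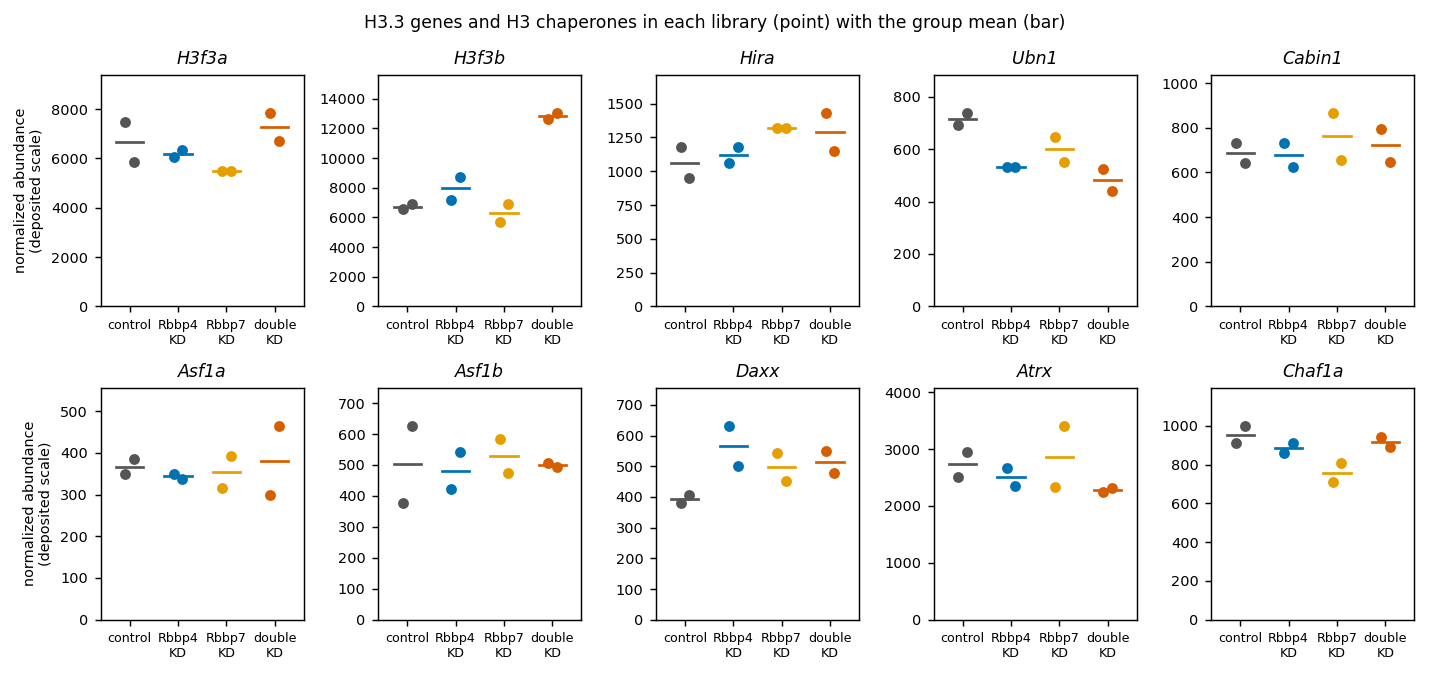
Normalized abundance (vertical axis, deposited scale, starting at 0) of the 10 genes in the 8 libraries; each point is a library, each bar the mean of a group, and the horizontal axis gives the siRNA group. The 2 double knockdown points of H3f3b, at 12632 and 13024, lie above the other 6 libraries, which reach at most 8728.

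H3f3b messenger RNA rose to nearly double the control level when Rbbp4 and Rbbp7 were both knocked down, and the mean of H3f3a was at 109% of its control. H3f3b was at 6557 and 6874 in control, 7184 and 8728 in Rbbp4 knockdown, 5671 and 6894 in Rbbp7 knockdown, and 12632 and 13024 in double knockdown libraries. Both double knockdown libraries were higher than every other library, the Rbbp4 knockdown libraries lay above both controls, and the Rbbp7 knockdown libraries overlapped with them. The double knockdown mean, 12828 ± 277, was 191% of the control mean of 6716 ± 224. In limma's moderated test with Benjamini-Hochberg adjustment, fitted to all 12565 genes with a mean of at least 10, H3f3b rose by 0.93 ± 0.13 (standard error; 95% interval 0.631 to 1.24) on the log2(value + 1) scale, with an adjusted p of 0.0208. It was the only 1 of the 10 genes called at an adjusted p below 0.05 in this comparison, in which 1.15% of all tested genes were called, 0.645% as higher and 0.501% as lower.

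The rise of H3f3b was also measured against each single knockdown. Against the Rbbp7 knockdown (mean 6283 ± 865) it was 1.04 ± 0.13 (95% interval 0.734 to 1.34, limma adjusted p = 0.0177), in a comparison where 0.358% of tested genes were called (0.239% as higher, 0.119% as lower) and no other member passed. Against the Rbbp4 knockdown (mean 7956 ± 1090) it was 0.70 ± 0.13 (95% interval 0.393 to 0.998) and did not pass (limma adjusted p = 0.187); 0.0159% of tested genes were called there and 0 members, with 1203 genes (9.57%) at an unadjusted p below 0.05. These comparisons share the double knockdown libraries.

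Alone, neither siRNA gave an H3f3b change that passed. The Rbbp4 knockdown stood at 118% of the control (0.24 ± 0.13, limma adjusted p = 0.877) and the Rbbp7 knockdown at 93.6% (log2 change −0.10, limma adjusted p = 0.846). The excess of the double knockdown's change over the sum of both single changes was 0.80 ± 0.19 (95% interval 0.371 to 1.23), with an unadjusted p of 0.00217 and a limma adjusted p of 0.593. That test of the difference itself did not pass, for H3f3b or for any of the 10 genes, and it called 0.00796% of all tested genes, while 6.49% had an unadjusted p below 0.05.

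H3f3a read 7484 and 5843 in control, 6073 and 6321 in Rbbp4 knockdown, 5479 and 5481 in Rbbp7 knockdown, and 7833 and 6723 in double knockdown libraries. The control libraries overlapped with those of the Rbbp4 knockdown and the double knockdown, and the 2 Rbbp7 knockdown libraries were the lowest of all. The double knockdown mean was 109% of the control (log2 change 0.13, 95% interval −0.175 to 0.443, limma adjusted p = 0.659), and the Rbbp7 knockdown mean was 82.2% (−0.27, limma adjusted p = 0.576). The log2 change between the double and the Rbbp7 knockdown, 0.40, did not pass either (limma adjusted p = 0.215).

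Because both genes make the same protein, their balance and their sum were read within each library. Per kilobase of exon, H3f3b gave 50.8% and 58.1% of the combined H3.3 signal in control, 58.2% and 61.9% in Rbbp4 knockdown, 54.9% and 59.7% in Rbbp7 knockdown, and 65.5% and 69.5% in double knockdown libraries. The double knockdown libraries had the highest shares of the 8. The ratio of H3f3b to H3f3a, whose change between groups does not depend on the lengths used, had a log2 difference of 0.80 between double knockdown and control. The exact two-sided permutation p was 0.333, the smallest that 2 libraries against 2 can give. The share itself does depend on length: with the single-transcript lengths the group means were 31.2%, 36.3%, 33.7% and 44.1% in the same order, against 54.4%, 60.1%, 57.3% and 67.5% by exon union.

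Summed over both genes, the H3.3 signal per kilobase was 4339 and 3977 in control, 4147 and 4737 in Rbbp4 knockdown, 3469 and 3881 in Rbbp7 knockdown, and 6480 and 6295 in double knockdown libraries. The double knockdown sum was therefore 153.6% of the control, those of the single knockdowns 106.8% and 88.4%. With the single-transcript lengths the sums were 134.6%, 100.9% and 85.7%, so the excess in the double knockdown also depends on the lengths used.

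The call for H3f3b against the control was lost when any 1 of the 4 libraries compared was left out, with adjusted p of 0.054 to 0.0837 and a log2 change of 0.90 to 0.97 (0.90 and 0.0837 without control replicate 1), and with only those 4 libraries in the fit (adjusted p = 0.111). Against the Rbbp7 knockdown it was lost when either library of either group was left out (0.0684 to 0.108).

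**Figure D2:**
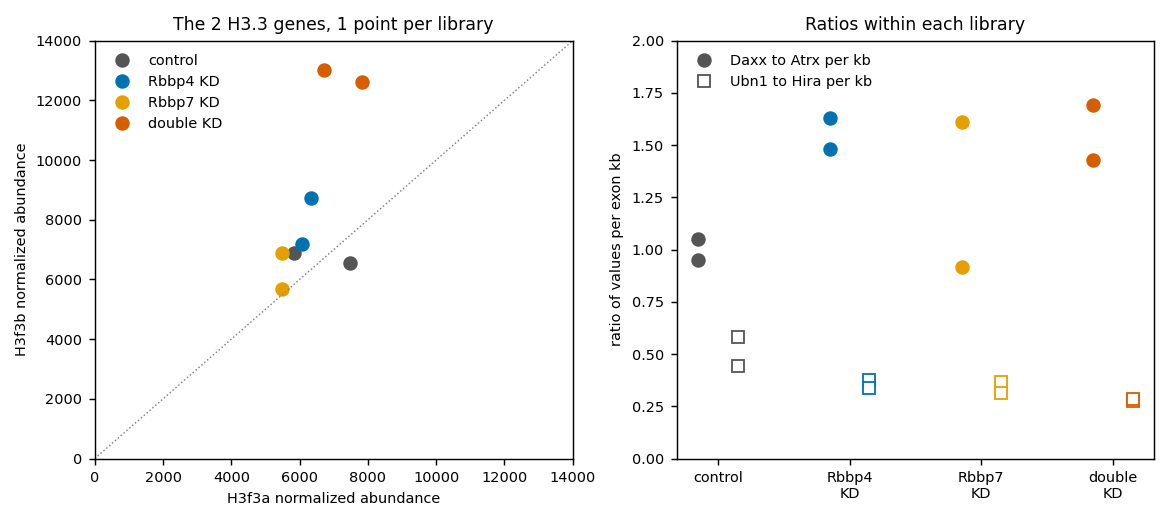
Left, normalized abundance of H3f3b (vertical) against H3f3a (horizontal) with 1 point per library and a dotted line of equal values; right, the ratios of Daxx to Atrx (circles) and Ubn1 to Hira (squares) per exon kilobase in each library by group. The double knockdown points lie well above the line at left, and at right the squares of the 6 knockdown libraries, at 0.276 to 0.377, lie below those of the control at 0.442 and 0.584.

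In the HIRA complex, Ubn1 had lower values in every knockdown library than in either control library, while Hira and Cabin1 did not. How many of all tested genes split this way was not computed, and all knockdown groups are set against the same control libraries. Ubn1, whose protein binds H3.3 directly, was at 693.6 and 737.0 in control, 531.8 and 532.0 in Rbbp4 knockdown, 645.7 and 551.5 in Rbbp7 knockdown, and 524.8 and 438.3 in double knockdown libraries. No group overlapped with the control, and the double knockdown libraries were the lowest of the 8. The group means were 74.4%, 83.7% and 67.3% of the control. None of the changes passed: −0.43 ± 0.155 (limma adjusted p = 0.834) in the Rbbp4 knockdown, −0.26 (0.631) in the Rbbp7 knockdown and −0.58 ± 0.155 (95% interval −0.925 to −0.226; adjusted p = 0.109) in the double knockdown.

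Hira, the scaffold of the complex, read 1178 and 948.6 in control, 1059 and 1183 in Rbbp4 knockdown, 1319 and 1323 in Rbbp7 knockdown, and 1430 and 1152 in double knockdown libraries. Only the Rbbp7 knockdown did not overlap with the control. The log2 changes were 0.08, 0.32 and 0.28 in that order (limma adjusted p 0.975, 0.559 and 0.398). Cabin1 ranged from 625.5 to 865.6 over the 8 libraries, overlapped with the control in each group and had log2 changes of −0.02, 0.14 and 0.07 (limma adjusted p 0.995, 0.847 and 0.889).

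Within libraries, Ubn1 per kilobase was 0.442 and 0.584 of Hira in the control and 0.377, 0.338, 0.368, 0.313, 0.276 and 0.286 in the 6 knockdown libraries, listed in the order Rbbp4, Rbbp7, double. Cabin1 was 0.317 and 0.346 of Hira in the control and between 0.254 and 0.352 elsewhere, with overlap. Hira (chr16:18877037-18970309) shares 44.7% of its exon bases with the annotated gene Gm28539 on the same strand, whose mean was 2.09, so reads of the 2 genes cannot all be told apart. Ubn1 (chr16:5050057-5086289) and Cabin1 (chr10:75646112-75764341) share no such stretch with another gene.

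In the DAXX and ATRX pair, Daxx values were higher in all 6 knockdown libraries than in either control library. Every knockdown group is set against the same control libraries, and the share of all tested genes split this way was not computed. Daxx, the H3.3-specific chaperone, was at 380.0 and 407.0 in control, 629.9 and 501.4 in Rbbp4 knockdown, 544.8 and 452.1 in Rbbp7 knockdown, and 548.4 and 479.8 in double knockdown libraries. The groups were at 144%, 127% and 131% of the control, and the 3 knockdown groups overlapped with one another. The log2 changes of 0.51 ± 0.18, 0.33 and 0.38 did not pass (limma adjusted p 0.814, 0.594 and 0.305).

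Atrx, the ATP-dependent remodeller, was at 2503 and 2954 in control, 2663 and 2346 in Rbbp4 knockdown, 2334 and 3397 in Rbbp7 knockdown, and 2242 and 2312 in double knockdown libraries. Its double knockdown libraries were the lowest of the 8, at 83.5% of the control mean (log2 change −0.26, limma adjusted p = 0.492), and the single knockdowns overlapped with the control (−0.12 and 0.05; 0.962 and 0.954). The ratio of Daxx to Atrx per kilobase was 1.05 and 0.951 in control, 1.63 and 1.48 in Rbbp4 knockdown, 1.61 and 0.919 in Rbbp7 knockdown, and 1.69 and 1.43 in double knockdown libraries. It was above the control in 5 of 6 knockdown libraries. Daxx lies at chr17:33909414-33915590 and Atrx at chrX:105797615-105929403.

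For the paralogs Asf1a and Asf1b, every knockdown group overlapped with the control. Asf1a, which works mainly with the HIRA complex, was at 348.2 and 385.0 in the control and between 299.5 and 463.1 over the 8 libraries, both extremes in the double knockdown. Asf1b, the form tied to proliferating cells, was at 378.7 and 624.4 in the control, the extremes of the 8 libraries, with the knockdowns between them. Their log2 changes lay between −0.09 and 0.11, and limma adjusted p between 0.919 and 0.995. Asf1b to Asf1a per kilobase ranged from 1.66 to 2.88, so that Asf1b was the higher of the 2 in every library. Asf1a (chr10:53596757-53609225) shares 48.05% of its exon bases with Mcm9 on the opposite strand (mean 63.06), and whether counting used strand is not given. The level of Asf1a per kilobase, and with it the ratio of Asf1b to Asf1a, is therefore uncertain. Asf1b lies at chr8:83955507-83970197.

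Chaf1a, the large subunit of CAF-1, was at 910.2 and 996.7 in control, 858.2 and 909.1 in Rbbp4 knockdown, 712.6 and 805.9 in Rbbp7 knockdown, and 944.5 and 892.8 in double knockdown libraries. The Rbbp7 knockdown libraries were the lowest of the 8, while the double knockdown overlapped with the control. The Rbbp7 knockdown mean was 79.6% of the control (−0.33 ± 0.13, limma adjusted p = 0.481), against 92.7% and 96.4% in the Rbbp4 and double knockdowns (−0.11 and −0.05; 0.949 and 0.879). Chaf1a (chr17:56040439-56072289) shares 52.5% of its exon bases with Ubxn6 on the opposite strand, which had a mean of 799.36.

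**Figure D3:**
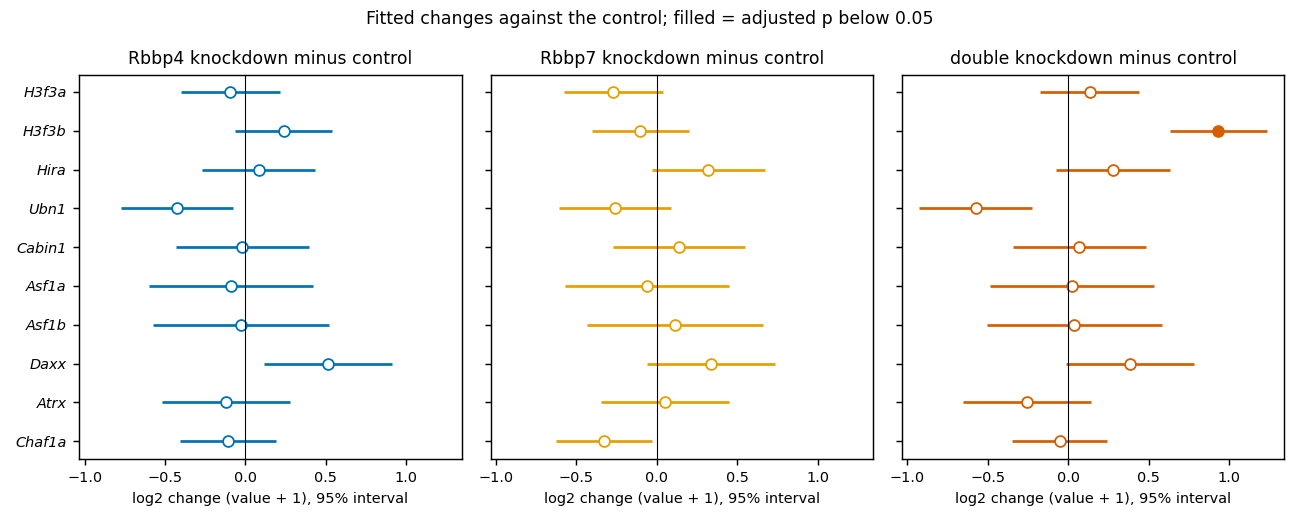
Fitted log2 change on the log2(value + 1) scale (horizontal axis, with the 95% interval as a line) of the 10 genes (vertical axis) in each knockdown minus the control, in 3 panels; filled points passed at an adjusted p below 0.05. H3f3b in the double knockdown, at 0.93, is the 1 filled point.

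Counted by overlap alone, 4 of the 10 genes did not overlap between the Rbbp4 knockdown and the control (H3f3b and Daxx higher, Ubn1 and Chaf1a lower), where 35.4% of all tested genes did not. In the Rbbp7 knockdown it was 5 of 10 (Hira and Daxx higher, H3f3a, Ubn1 and Chaf1a lower) against 39.6%, and in the double knockdown 4 of 10 (H3f3b and Daxx higher, Ubn1 and Atrx lower) against 44.1%. Against the Rbbp4 knockdown, the double knockdown did not overlap for 4 of 10 (H3f3a and H3f3b higher, Ubn1 and Atrx lower) where 42.4% of tested genes did not, and against the Rbbp7 knockdown for 5 of 10 (also Chaf1a higher) where 46.3% did not. These shares are close to the background. Both double knockdown libraries were above the other 6 for H3f3b, as for 8.87% of all tested genes, and below them for Ubn1 and Atrx, as for 8.04%. The median log2 change of the 10 genes was −0.06, −0.005 and 0.05 in the Rbbp4, Rbbp7 and double knockdown, beside 0.005, 0.009 and −0.001 for all tested genes. In each single knockdown limma called 0 of the 10 genes and 0.0239% of all tested genes, with 736 (5.86%, Rbbp4) and 1200 (9.55%, Rbbp7) genes at an unadjusted p below 0.05. The 3 comparisons share the control libraries.

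Other genes of H3 handling were read from fixed lists for the double knockdown against the control. In that comparison 1.15% of all tested genes were called, so 0 calls in lists this short do not set them apart. In the list of other H3-H4 chaperones, 0 of 17 passed and the median log2 change was −0.03; the genes with the smallest p were Cdan1 (codanin, which binds ASF1 in the cytoplasm) at 0.40, Hjurp (the chaperone of the centromeric H3 variant) at −0.18 and Chaf1b (the middle subunit of CAF-1) at −0.29. Among chaperones of H2A-H2B and general histone chaperones, 0 of 15 tested passed (median −0.11), with Nap1l1 at 0.34, Anp32e at −0.34 and Anp32a at −0.26. Of 10 factors for the 3′ ends of histone messenger RNA, 0 passed (median −0.08), with Cpsf2 at −0.48, Slbp, which binds the stem-loop, at −0.27 and Npat, the activator of histone loci, at −0.32. Slbp was at 1047 and 1078 in the control and at 839.7 and 919.1 in the double knockdown. These values did not overlap, as for Cpsf2, Npat and 44.1% of all tested genes.

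Replication-dependent histone messages end in a stem-loop rather than a poly(A) tail, and these libraries were made by oligo(dT) capture. Of the other H3 and H4 genes, 26 were in the table and 6 reached the mean of 10. None of the 6 passed in the double knockdown against the control (median −0.23), where 1.15% of all tested genes were called. Cenpa, the centromeric H3 variant, was at 1226 and 1245 in the control and 667.0 and 974.4 in the double knockdown (−0.62 ± 0.18, limma adjusted p = 0.131). Hist1h4i was at 70.22 and 54.1 in the control and 107.0 and 150.6 in the double knockdown (1.03 ± 0.37, limma adjusted p = 0.204). Hist4h4 was at 26.72 and 22.06 in the control and 28.49 and 2.479 in the double knockdown, the largest fold between the double knockdown libraries among the 3 genes named.

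In the list of remodellers, readers and partners of H3.3, 1 of 18 tested genes passed in the double knockdown against the control, and it fell. Of all tested genes, 1.15% were called there, 0.501% as lower. Trim28, the corepressor that KRAB zinc finger proteins recruit to retroelements, was at 10829 and 10007 in control, 7978 and 7708 in Rbbp4 knockdown, 11056 and 10537 in Rbbp7 knockdown, and 7157 and 6402 in double knockdown libraries. It was lower in the 4 libraries injected against Rbbp4 than in the other 4, but in the Rbbp4 knockdown alone the log2 change of −0.41 did not pass (limma adjusted p = 0.68). The share of all tested genes with this split of libraries was not computed. The double knockdown mean was 65.1% of the control, a log2 change of −0.62 ± 0.11 (limma adjusted p = 0.0341), and against the Rbbp7 knockdown the change was −0.67 (limma adjusted p = 0.0453). Limma called 0.358% of all tested genes in the latter comparison. The call against the control was lost when any 1 of the 8 libraries was left out (adjusted p 0.0564 to 0.116), as was that against the Rbbp7 knockdown (0.0502 to 0.221). In the same list, Kmt5c, which trimethylates H4 lysine 20, had −0.59, and Rtf1, a subunit of the PAF1 complex, had 0.29, with neither passing; the list's median was −0.16.

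**Figure D4:**
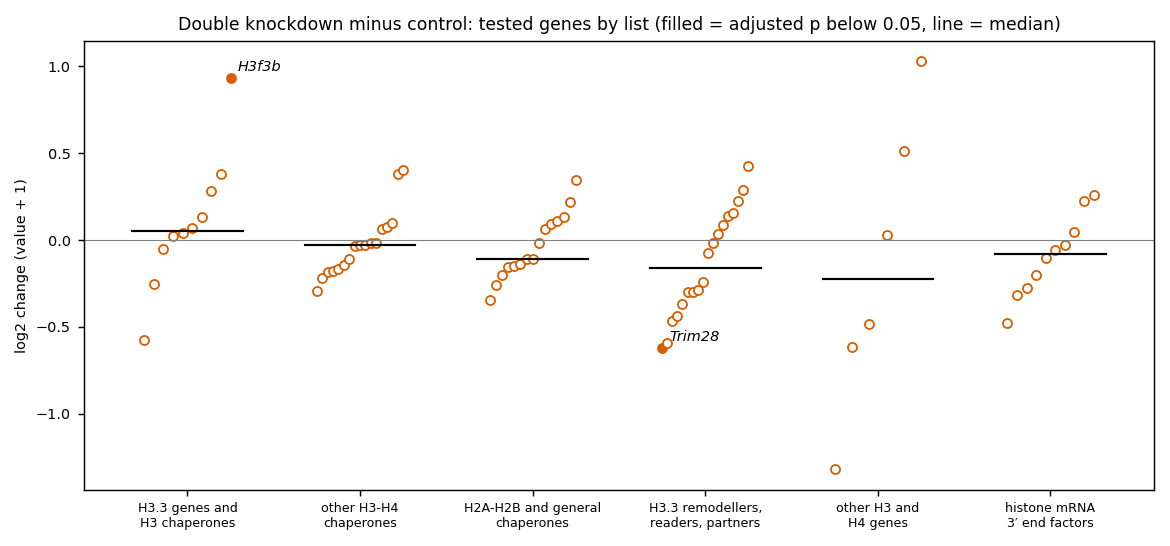
Log2 change on the log2(value + 1) scale in the double knockdown minus the control (vertical axis) for each tested gene of 6 lists (horizontal axis); points are ordered by value, lines are list medians, and filled points passed at an adjusted p below 0.05. H3f3b at 0.93 and Trim28 at −0.62 are the 2 filled points.

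Genes whose pattern over the 8 libraries was among the most like that of H3f3b, by Pearson correlation of log2(value + 1), were Cd74 (0.976), Grcc10 (0.976), Klrb1a (0.974) and Cyp4f17 (0.97). The 8 points share the between-library normalization and 4 groups, and none of these 4 genes was called in the double knockdown. Cd74, for example, was at 45.1 and 40.2 in the control and 103.3 and 114.8 in the double knockdown (limma adjusted p = 0.0904).

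Markers of cumulus and granulosa cells, which surround the egg, had their highest mean sum in the double knockdown as well. Their summed level was 97.1 and 107.3 in control, 127.4 and 190.8 in Rbbp4 knockdown, 132.3 and 78.9 in Rbbp7 knockdown, and 251.3 and 166.4 in double knockdown libraries. Of the 10 markers listed, 5 were in the table and 2 had a mean of at least 10. Amhr2, with most of the sum, was at 67.79 and 91.25 in control, 94.24 and 150.68 in Rbbp4 knockdown, 112.47 and 58.0 in Rbbp7 knockdown, and 144.7 and 87.09 in double knockdown libraries. Its double knockdown values overlapped with the control. Foxl2 was at 29.28 and 12.03 in control, 28.58 and 33.79 in Rbbp4 knockdown and 16.63 and 19.83 in Rbbp7 knockdown libraries. Its double knockdown values, 101.31 and 74.4, did not overlap with the control, as for 44.1% of all tested genes. Amh was at 0 and 4.02 in the control and 4.22 and 1.24 in the double knockdown, with overlap. Cyp11a1 was at 0 in both groups, and Ptgs2 at 0 in the control and at 1.05 and 3.72 in the double knockdown.

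Among markers of the embryo's own lineages, named after their values were seen, Nanog was at 4192 and 4692 in the double knockdown and between 6051 and 10156 elsewhere, and Cdx2 at 1409 and 1195 against 1700 to 2869. Neither passed against the control (limma adjusted p 0.0572 and 0.101). Nanog and Cdx2 are 2 of the 14 listed markers, and most others did not have both double knockdown libraries below the other 6. Against the 2 control libraries alone, Cdh1, Gata3, Krt8, Krt18, Sox2, Tead4 and Utf1 were also lower in both double knockdown libraries. Pou5f1, Dppa5a, Tdgf1, Tfap2c and Zfp42 overlapped with the control. In that comparison 44.1% of all tested genes did not overlap. Utf1 was also lowest in the double knockdown (468.4 and 423.1). Pou5f1 (15910 and 13735) and Dppa5a (8832 and 8819) lay within the range of the other libraries. Of all tested genes, 8.04% had both double knockdown libraries below the other 6. The part of cumulus cells or of embryonic lineages in the H3f3b values was not tested. In bulk RNA of whole embryos, fewer cells of a type and less RNA per cell cannot be told apart.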

How the data were processed

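The authors deposited a signal for each Ensembl gene, an abundance scaled between libraries with DESeq2 per the name of their table. The submitters' processing notes list Trimmomatic, HISAT2, featureCounts, DESeq2 and build GRCm38; versions, annotation and use of strand were not given in the sources used here. Whole reads could not be recovered (of the values under 50 times the commonest one, 16.5% to 29.1% per library were whole multiples of it to within 0.05), so the read depth is unknown, no count model was fitted and no counting interval is given. Of 19058 identifiers, 18942 matched a symbol and 116 did not.

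Values were analysed as log2(value + 1), on which a fold change understates changes of low genes. A model with 1 mean per group was fitted with limma 3.58.1 in R 4.3.3 to all 8 libraries and 12565 genes, with means under 10 as the reason to leave out 6493, with an intensity trend. Residual and prior degrees of freedom were 4 and 5.18. Tests were two-sided, with Benjamini-Hochberg adjustment within each of 6 comparisons, and calls were made below 0.05. The script was tested on simulated data. Exon lengths and overlaps came from GENCODE M21, promoters from RefSeq. Alternatives were other pseudocounts, filters, scalings, group weights, fits of only the groups compared, a replicate block and single libraries left out. The 10 genes and the lists were chosen with earlier results of these data known. Genes named are the 10, the siRNA targets, each list's called genes and its 3 with the smallest p in the double knockdown, and the 5 most like H3f3b, of which 1 is not reported here.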

Additional observations from a re-analysis of the deposited data

How the results depend on the processing

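Over 983 values of single genes under an alternative, 928 kept their direction and side of the threshold, 33 lost their call and 22 changed sign, the last all with 1 library left out. Many of the 928 could hardly change. A library left out of another group leaves the log2 change as it was, and a gene that was not called has no call to lose. The 33 lost calls all belonged to H3f3b and Trim28. In the double knockdown against the control, H3f3b stayed called in 11 of 17 alternatives (log2 change 0.90 to 0.97, adjusted p 0.0158 to 0.111; 0.0672 with group weights), and in 12 of 17 against the Rbbp7 knockdown (adjusted p 0.014 to 0.166, the highest with only the groups compared). Its excess over the single changes passed in 0 of 16 (adjusted p 0.341 to 1.0). Trim28 stayed called in 6 of 17 in both comparisons.

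Genes called in the double knockdown against the control numbered 144, but 2 with only the groups compared, 38 with group weights and 27 to 99 with 1 library left out. Against the Rbbp7 knockdown 45 were called, 78 with a minimum mean of 50, 1 with only the groups compared and 5 to 42 with 1 library left out. Against the Rbbp4 knockdown 2 were called, 4 with a pseudocount of 10 and 2 to 13 with 1 library left out. The Rbbp7 knockdown gave 3, 7 with a pseudocount of 10, 6 with a minimum mean of 50 and 1 to 38 with 1 library left out, and the Rbbp4 knockdown 3, with 2 to 36. The interaction gave 1, 0 with a pseudocount of 10 and 1 to 21. The highest counts for the Rbbp4 knockdown, the Rbbp7 knockdown and the interaction all came with control replicate 2 left out. That fit leaves control replicate 1, which stood apart from the other libraries, as the only control. Fewer samples or residual degrees of freedom entered the fits without a library or other groups. The cause of the changed counts was not tested for any setting.

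With 1 library left out, log2 changes against the control that took both signs were, in the Rbbp4 knockdown, Asf1b −0.387 to 0.332, Cabin1 −0.13 to 0.0916, H3f3a −0.272 to 0.0847 and Hira −0.0738 to 0.239. In the Rbbp7 knockdown they were Asf1a −0.219 to 0.0991, Asf1b −0.248 to 0.472, Atrx −0.22 to 0.321, Cabin1 −0.0595 to 0.338 and H3f3b −0.243 to 0.0382. In the double knockdown they were Asf1a −0.289 to 0.338, Asf1b −0.321 to 0.399, Cabin1 −0.079 to 0.217, Chaf1a −0.118 to 0.0127, H3f3a −0.0445 to 0.313 and Hist4h4 −2.86 to 0.222. Of 58 changes, these 15 took both signs and 20 more, none of them called, kept their sign but moved by over 1.5 times; among the latter were H3f3a (−0.45 to −0.0925), Hira (0.165 to 0.477), Daxx (0.201 to 0.469) and Ubn1 (−0.374 to −0.147) in the Rbbp7 knockdown, H3f3b (0.0977 to 0.378) in the Rbbp4 knockdown, and Hira (0.123 to 0.436), Atrx (−0.375 to −0.137) and Cenpa (−0.889 to −0.343) in the double knockdown. The log2 difference of the H3f3b to H3f3a ratio was 0.587 to 1.01. With the length of 1 transcript per gene, chosen after seeing the data, the H3f3b share was 31.2%, 36.3%, 33.7% and 44.1% in control, Rbbp4, Rbbp7 and double knockdown, and the summed H3.3 signal of the double knockdown 134.6% of the control in place of 153.6%.

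Replicate numbers are shared between groups, but deviations of same-numbered libraries correlated at −0.022 to 0.051, so no strong shift common to them was seen. This cannot tell whether same-numbered libraries were collected or processed together. With a replicate block, H3f3b had an adjusted p of 0.0193 in the double knockdown against the control, where 113 genes were called, and 0.02 against the Rbbp7 knockdown, where 30 were.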
